A study of Mus musculus with 6 samples.

Results

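Collagens are the main structural proteins of the extracellular matrix. Each collagen is built from 3 chains, which may come from 1 gene or from several, so the amount of a collagen depends on the transcripts of all its chain genes. The collagen chain genes were taken as the protein-coding genes of the deposited table whose symbol has the form of Col, a number, a and a number, and 43 of the 30914 genes in the table met this rule. They comprised 11 genes of fibrillar collagens, 8 of basement membrane collagens, 9 of FACIT collagens (fibril-associated collagens with interrupted triple helices), 5 of beaded-filament collagens, 4 of transmembrane collagens and 6 of network-forming and other collagens. The other 2 genes of the class list, Col6a4 and Col21a1, were not analysed here.

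Fibrillar collagens form the tension-bearing fibres of tissue, and in the heart they are laid down mainly by fibroblasts. Angiotensin II (Ang II), a peptide hormone that raises blood pressure, is infused into mice to induce cardiac hypertrophy and fibrosis, in which activated fibroblasts deposit fibrillar collagen between the cardiomyocytes. Basement membrane collagens form sheets around cardiomyocytes and vessels, beaded filaments link these sheets to the fibres, and FACIT collagens coat the fibres.

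Heart RNA was sequenced from male C57BL/6J mice with a wild-type genotype, aged 8 weeks at the start, with 3 mice in the Ang II group and 3 in the Ang II + Tec group. For 4 weeks every mouse was infused with 1 μg/kg/min Ang II. The Ang II + Tec group was also given tectochrysin (Tec), a plant flavonoid, at 5 mg/kg during the last 2 weeks. Values are FPKM, fragments scaled by transcript length and by the total mapped, so genes can be compared per length. No library of mice without Ang II was analysed here, so the comparison is between Ang II with and without Tec.

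The libraries differed within the groups before any gene was singled out. The markers of cardiomyocytes were abundant in all 6 libraries, with a summed FPKM between 8457 and 10331 over 8 genes. By contrast, the summed FPKM of 5 atrial cardiomyocyte markers was 6205, 10253 and 256 in the Ang II libraries and 906, 5056 and 128 in the Ang II + Tec libraries, and Myl7, the atrial myosin light chain, was listed at 0 in Ang II replicate 3 and Ang II + Tec replicate 1. Most of this sum was Nppa. Without it, the sum was 637, 797 and 0.61 in the Ang II libraries and 0.29, 1568 and 2.62 in the Ang II + Tec libraries. Ang II + Tec replicate 2 was then the highest. Ang II replicate 3 was the lowest of its group in 71.9% of the 13089 tested genes, and Ang II + Tec replicate 2 was the highest of its group in 69.3%. Mitochondrial transcripts made up between 40.1% and 48.9% of the summed FPKM in the Ang II libraries and between 49.6% and 52.5% in the Ang II + Tec libraries. Over all tested genes, the median log2 fold change with Tec was -0.17, and 80.0% of them had a lower mean. After median-of-ratios scaling of the libraries this median was 0.0020 and 6498 of 13089 genes were lower, so changes of the collagen genes are read relative to this shift.

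To assess the collagen genes, the levels of all 43 members were first examined in each library. The tested members were those that reached 0.5 FPKM in 3 or more libraries, a group of 23 genes, 18 of which reached this level in all 6 libraries. None of the 23 passed through the libraries of 1 group alone. Of the 20 members that were not tested, 7 reached 0.5 FPKM in some library, 3 of them in Ang II replicates 1 and 2 and in no other. The mean FPKM was higher in the Ang II group for 38 of the 43 members, and Ang II replicates 1 and 2 both lay above all 3 Ang II + Tec libraries for 31 of the 43. Ang II replicate 3 lay within the range of the Ang II + Tec libraries for 29 members, above it for 7 and below it for 7. Both held together for 21 of the 43, comprising 8 of 11 fibrillar, 7 of 9 FACIT, 2 of 8 basement membrane, 2 of 5 beaded, 2 of 6 network-forming and other, and 0 of 4 transmembrane genes. Results are given with and without Ang II replicate 3. It was set apart after its low collagen values had been seen, so p-values and calls without it follow partly from that choice. They describe the dependence on 1 library and are not a test of Tec. In bulk tissue, fewer cells of a type and less RNA per cell cannot be told apart.

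**Figure D1:**
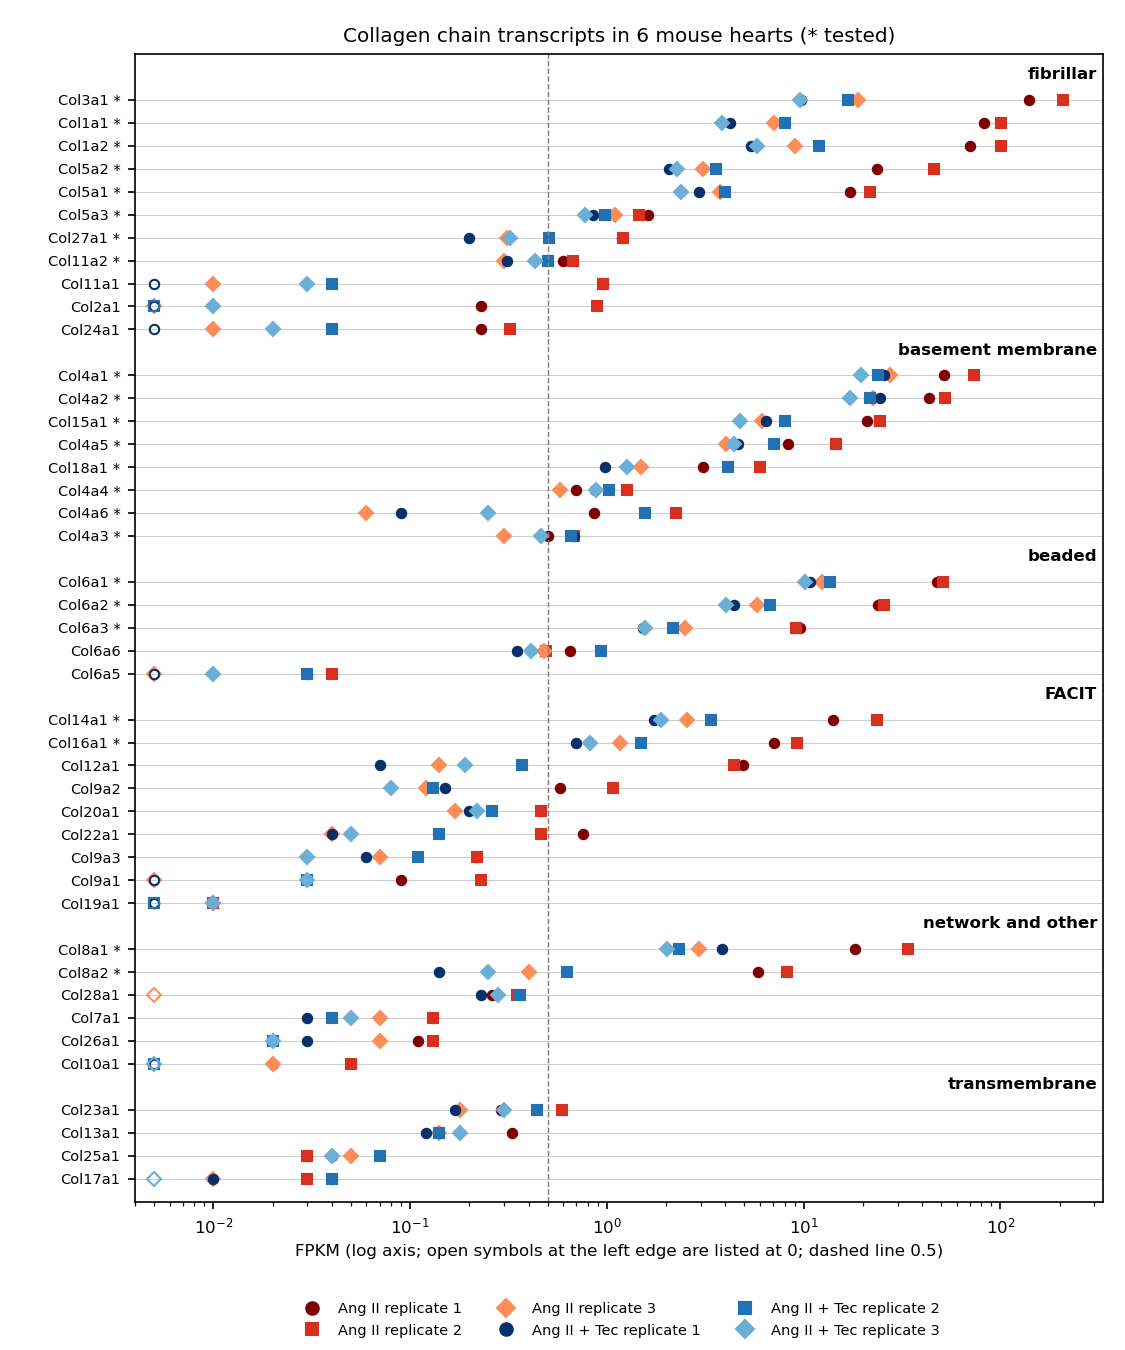
Each row is 1 of the 43 collagen chain genes, grouped by class and ordered by mean level, and each symbol is the FPKM of 1 of the 6 libraries on a log axis. The dashed line marks 0.5 FPKM, asterisks mark the 23 tested genes, and in most fibrillar rows the symbols of Ang II replicates 1 and 2 stand to the right of the other 4.

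With 1 added to each FPKM, the fibrillar chains of types I and III and Col5a2 of type V showed the largest log2 fold changes among the tested collagen genes. Adding 1 shrinks the changes of low genes. By the ratio of mean FPKM, Col8a2, a network-forming gene that was low with Tec, was 14.2-fold higher in the Ang II group, against 11.8-fold for Col1a1. Col3a1 (type III collagen, ENSMUSG00000026043, GRCm38 chr1:45311538-45349706, plus strand) had 139.5, 207 and 18.9 FPKM in the Ang II libraries and 9.71, 16.7 and 9.63 in the Ang II + Tec libraries. It was the most abundant collagen transcript of the series, and it is 1 of 4 tested members whose groups did not overlap, although Ang II replicate 3 stood at 18.9 beside a highest Ang II + Tec value of 16.7. The group levels were 122 ± 95.4 against 12.0 ± 4.06 (SD, n = 3), and the log2 fold change with Tec was -2.72 (limma adjusted p = 0.220, standard error 0.80). With Ang II replicate 3 left out, it was -3.76 (limma adjusted p = 0.000543, standard error 0.26). That p-value follows partly from leaving out the lowest Ang II library.

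Col1a1 and Col1a2 encode the chains of type I collagen, the main collagen of scar tissue. The level of Col1a1 (chr11:94936224-94953042, plus strand) was 82.7, 100.4 and 7.09 FPKM in the Ang II libraries and 4.20, 8.06 and 3.83 in the Ang II + Tec libraries. For Col1a2 (chr6:4504814-4541544, plus strand) it was 69.8, 101 and 9.01 FPKM in the Ang II libraries and 5.43, 12.0 and 5.81 in the Ang II + Tec libraries. In both genes Ang II replicates 1 and 2 were high and the other 4 libraries were low, and the groups overlapped, because Ang II + Tec replicate 2 exceeded Ang II replicate 3. By the ratio of mean FPKM, Col1a1 was 11.8-fold higher in the Ang II group. On the scale of the fit, which compares means of log2(FPKM + 1), it had the largest log2 fold change of the tested members, -2.75 (limma adjusted p = 0.228, standard error 0.90). Its level in Ang II replicate 3 was 1.32-fold the Ang II + Tec mean, whereas the mean of Ang II replicates 1 and 2 was 17.1-fold that mean. For Col1a2 the log2 fold change was -2.33 (limma adjusted p = 0.231, standard error 0.81), and without Ang II replicate 3 it was -3.35, against -3.91 for Col1a1.

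Type V collagen is a minor fibrillar collagen that starts the assembly of type I fibrils. Col5a2 (chr1:45374321-45503282, minus strand) had 23.7, 45.7 and 3.08 FPKM in the Ang II libraries and 2.06, 3.57 and 2.27 in the Ang II + Tec libraries. Col5a1 (chr2:27886425-28039514, plus strand) had 17.3, 21.9 and 3.75 FPKM in the Ang II libraries and 2.95, 3.96 and 2.39 in the Ang II + Tec libraries. Both followed the type I pattern, and in both Ang II + Tec replicate 2 lay above Ang II replicate 3, so the groups overlapped. The log2 fold changes were -2.23 (standard error 0.80) for Col5a2 and -1.63 (standard error 0.55) for Col5a1, with limma adjusted p-values of 0.234 and 0.229. The third type V gene, Col5a3, was low and even, at 1.62, 1.45 and 1.10 against 0.85, 0.98 and 0.77 FPKM. Its groups did not overlap, but its log2 fold change was -0.35 (limma adjusted p = 0.229, standard error 0.12).

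The remaining fibrillar genes were expressed near or below 1 FPKM. Col27a1, a fibrillar collagen known from cartilage, stood at 1.20, 1.21 and 0.31 against 0.20, 0.51 and 0.32 FPKM, with a log2 fold change of -0.47 (standard error 0.22). Col11a2, a chain of the cartilage collagen XI, stood at 0.60, 0.67 and 0.30 against 0.31, 0.50 and 0.43 FPKM, with a log2 fold change of -0.10 (standard error 0.13). The limma adjusted p-values of these 2 genes were 0.287 and 0.632, and no tested collagen gene had one under 0.05 in the 6 libraries. The other 3 fibrillar genes were not tested. Col11a1, which encodes another chain of collagen XI, had 0.96, 0.95 and 0.01 against 0, 0.04 and 0.03 FPKM. Col2a1, the main collagen of cartilage, had 0.23, 0.89 and 0 against 0, 0 and 0.01 FPKM, and Col24a1 had 0.23, 0.32 and 0.01 against 0, 0.04 and 0.02 FPKM. All 3 were detected mainly in Ang II replicates 1 and 2, and in all 11 fibrillar genes both of these libraries lay above every Ang II + Tec library.

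**Figure D2:**
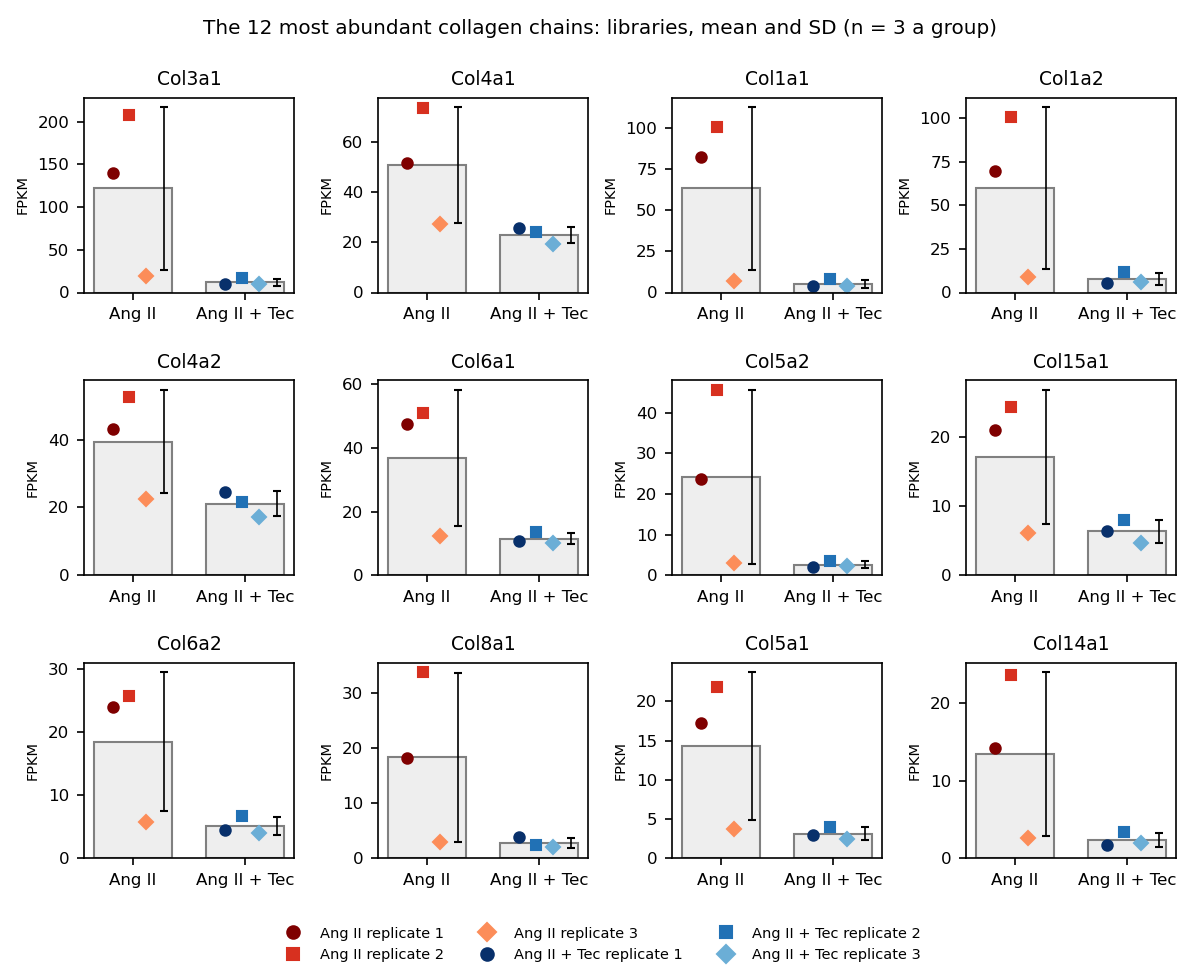
Bars give the mean FPKM of each group, error bars the SD (n = 3), and symbols the 6 libraries, for the 12 collagen chains with the highest mean FPKM. In each panel the diamond of Ang II replicate 3 stands close to the Ang II + Tec libraries, and the bars of the Ang II group are set by replicates 1 and 2.

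To place the fibrillar genes beside their sequence, the 250 bases before the RefSeq start site (GRCm38.p6) are printed for Col3a1 and Col5a1. They were selected because they are abundant fibrillar genes whose window overlaps no annotated exon. Capitals mark matches on either strand to a GC box (the letters GGGCGG), to a SMAD element (the letters CAGACA), to a TATA box (the letters TATAAA) and to a CCAAT box. The window of Col3a1 is chr1:45311288-45311537 and that of Col5a1 is chr2:27886175-27886424, both on the plus strand.
Col3a1: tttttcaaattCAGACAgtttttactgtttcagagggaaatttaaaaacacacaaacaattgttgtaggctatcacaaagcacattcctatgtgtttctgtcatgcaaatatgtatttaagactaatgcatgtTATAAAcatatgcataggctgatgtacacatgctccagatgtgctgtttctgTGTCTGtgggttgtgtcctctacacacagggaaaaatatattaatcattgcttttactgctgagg
Col5a1: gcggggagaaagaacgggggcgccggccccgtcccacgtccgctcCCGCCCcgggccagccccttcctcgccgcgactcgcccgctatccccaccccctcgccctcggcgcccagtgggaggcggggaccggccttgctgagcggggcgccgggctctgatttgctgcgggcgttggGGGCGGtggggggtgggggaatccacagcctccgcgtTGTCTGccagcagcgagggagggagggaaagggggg
Col3a1 held TATAAA at position -117 from the start site and CAGACA or its complement at positions -239 and -65, with a GC content of 35.2%. Col5a1 held 2 GC boxes, at positions -205 and -73, and the complement of CAGACA at position -36, with a GC content of 76.4%. Thus these 2 genes, which were both high in Ang II replicates 1 and 2, differed in the composition of their upstream sequence.

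Of the collagen genes, 34 of 43 had an entry in the promoter table, with 37 windows in all. A GC box was present in 21 of the 37 windows (56.8%), against 32.7% of all 32851 windows of the same length. CCAAT was present in 12 of the 37 (32.4%), against 33.8% of all windows, CAGACA in 9 (24.3%), against 17.1%, and TATAAA in 5 (13.5%), against 12.4%. These matches describe letters in a window and are not evidence of binding. The genes Col1a1, Col5a2, Col14a1 and Col12a1 were among the members with no entry.

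Of the classes with tested genes, the basement membrane genes had the smallest median log2 fold change, although single genes such as Col4a6 varied widely between the libraries. Col4a1 and Col4a2 encode the chains of the common type IV collagen network. Col4a1 (chr8:11198423-11312826, minus strand) had 51.6, 73.8 and 27.4 FPKM in the Ang II libraries and 25.6, 24.0 and 19.5 in the Ang II + Tec libraries. Its groups did not overlap, and its log2 fold change was -1.01 (limma adjusted p = 0.224, standard error 0.33). Col4a2 (chr8:11312805-11449287, plus strand) had 43.2, 52.5 and 22.6 FPKM in the Ang II libraries and 24.4, 21.7 and 17.1 in the Ang II + Tec libraries. Here Ang II + Tec replicate 1 lay above Ang II replicate 3, and the log2 fold change was -0.80 (limma adjusted p = 0.240, standard error 0.30). These genes lie head to head on chromosome 8, and their gene models overlap by 22 bases at the starts, so the assignment of reads there depends on whether the counting used strand. With Ang II replicate 3 left out, they were -1.39 and -1.15, smaller than those of Col1a1 and Col3a1.

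In the Ang II group the most abundant collagen transcript was Col3a1, at a mean of 122 FPKM, whereas in the Ang II + Tec group it was Col4a1, at 50.9 ± 23.2 against 23.0 ± 3.16 (SD, n = 3) FPKM with the Ang II group first. Ang II replicate 3 shared the second order, with 27.4 FPKM of Col4a1, 22.6 of Col4a2 and 18.9 of Col3a1.

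The chains of the other type IV networks were less abundant. Col4a5, a chain of the networks affected in Alport syndrome, had 8.37, 14.6 and 4.02 against 4.62, 7.08 and 4.41 FPKM and a log2 fold change of -0.52 (limma adjusted p = 0.441, standard error 0.39). Col4a6, found with Col4a5 in the basement membranes of smooth muscle, had 0.86, 2.25 and 0.06 against 0.09, 1.57 and 0.25 FPKM. This order differed from that of the fibrillar genes, because Ang II + Tec replicate 2 stood above Ang II replicate 1. Its log2 fold change was -0.29 (limma adjusted p = 0.709, standard error 0.46). The 3 libraries with the most Col4a6 were also the 3 with the most atrial markers and, among 7 epicardial and mesothelial markers, had the highest summed FPKM (7.52, 20.8 and 2.94 in the Ang II libraries and 3.21, 22.1 and 6.46 in the Ang II + Tec libraries). Without Aldh1a2, the most abundant of these 7 markers, the sums were 2.04, 13.0 and 0.61 against 1.53, 18.9 and 4.63. Ang II + Tec replicate 3 then stood above Ang II replicate 1. The part of atrial, epicardial and mesothelial cells in the level of Col4a6 was not tested.

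Col4a3 and Col4a4 were the tested members whose direction was opposite to the median of the collagen genes. Both encode chains that join Col4a5 in the network of the kidney glomerulus. Col4a3 (chr1:82586921-82722059, plus strand) had 0.50, 0.68 and 0.30 FPKM in the Ang II libraries and 0.68, 0.66 and 0.46 in the Ang II + Tec libraries. Col4a4 (chr1:82448423-82586849, minus strand) had 0.70, 1.27 and 0.58 FPKM in the Ang II libraries and 0.87, 1.02 and 0.88 in the Ang II + Tec libraries. The groups overlapped fully in both genes. The log2 fold changes were 0.10 (standard error 0.13) and 0.07 (standard error 0.15), with limma adjusted p-values of 0.625 and 0.781, and without Ang II replicate 3 they were 0.0085 and -0.031. The direction of Col4a4 therefore turned without that library.

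Col4a3 and Col4a4 also lie head to head, and their gene models are separated by 71 bases at chr1:82586850-82586920. This stretch is shown because it lies between the starts of the only tested pair with no lower mean with Tec. It is printed 5′ to 3′ on the minus strand, the strand of Col4a4, from RefSeq (GRCm38.p6), with a GC content of 69.0%.
Col4a4 to Col4a3: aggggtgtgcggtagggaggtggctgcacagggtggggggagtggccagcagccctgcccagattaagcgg
No match to the 4 motifs was found in it. The third pair of type IV genes, Col4a6 and Col4a5, is arranged in the same way on chromosome X with 1308 bases between the gene models. The pair Col4a1 and Col4a2 was lower with Tec and the pair Col4a3 and Col4a4 was not, by the values above, and the difference between the pairs was not tested.

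The multiplexin genes Col15a1 and Col18a1 encode collagens that link basement membranes to the underlying fibres. Col15a1 (chr4:47208161-47313167, plus strand) had 21.1, 24.4 and 6.13 FPKM in the Ang II libraries and 6.40, 8.00 and 4.73 in the Ang II + Tec libraries. Ang II replicates 1 and 2 stood above the rest, and Ang II replicate 3 lay within the range of the Ang II + Tec libraries. Its log2 fold change was -1.13 (limma adjusted p = 0.259, standard error 0.46). Col18a1, the precursor of endostatin, had 3.08, 6.02 and 1.49 against 0.98, 4.14 and 1.26 FPKM and a log2 fold change of -0.54 (limma adjusted p = 0.494, standard error 0.46). As in Col4a6, Ang II + Tec replicate 2 stood above Ang II replicate 1.

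Beaded-filament collagen VI is assembled from 3 different chains. Col6a1 (chr10:76708792-76726168, minus strand) had 47.4, 51.0 and 12.3 FPKM in the Ang II libraries and 10.7, 13.6 and 10.2 in the Ang II + Tec libraries. Col6a2 (chr10:76595762-76623630, minus strand) had 23.9, 25.7 and 5.77 FPKM in the Ang II libraries and 4.41, 6.71 and 4.01 in the Ang II + Tec libraries. The 2 genes are neighbours on chromosome 10, and in both Ang II + Tec replicate 2 lay above Ang II replicate 3. Col6a3 had 9.53, 9.11 and 2.49 against 1.53, 2.17 and 1.56 FPKM with no overlap, and the lowest p of the tested collagen genes (limma adjusted p = 0.218). The log2 fold changes of the 3 chains were alike, at -1.38 (standard error 0.49), -1.48 (standard error 0.51) and -1.39 (standard error 0.41) in that order. The remaining chains were not tested. Col6a6 had 0.65, 0.49 and 0.48 against 0.35, 0.93 and 0.41 FPKM, with the highest value in the Ang II + Tec group, and Col6a5 had at most 0.04 FPKM in any library.

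Of the FACIT genes, 2 were tested. Col14a1 (chr15:55307750-55520803, plus strand) encodes a collagen on the surface of type I fibrils and had 14.2, 23.6 and 2.54 FPKM in the Ang II libraries and 1.73, 3.39 and 1.88 in the Ang II + Tec libraries. Ang II + Tec replicate 2 lay above Ang II replicate 3, and the log2 fold change was -1.75 (limma adjusted p = 0.240, standard error 0.65). Col16a1 had 7.08, 9.30 and 1.16 against 0.70, 1.49 and 0.82 FPKM and a log2 fold change of -1.51 (limma adjusted p = 0.234, standard error 0.54). Among the genes that were not tested, Col12a1, a relative of Col14a1, had the highest level, at 4.91, 4.45 and 0.14 against 0.07, 0.37 and 0.19 FPKM. Its mean in Ang II replicates 1 and 2 was 22.3-fold the Ang II + Tec mean, but Ang II replicate 3 lay within the Ang II + Tec range. Col9a2, a chain of the cartilage collagen IX, had 0.58, 1.08 and 0.12 against 0.15, 0.13 and 0.08 FPKM, and Col22a1, known from tissue junctions, had 0.76, 0.46 and 0.04 against 0.04, 0.14 and 0.05 FPKM. The same 2 libraries were high in both. Col20a1, Col9a3, Col9a1 and Col19a1 stayed at or below 0.46 FPKM in every library.

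Type VIII collagen forms short-chain networks under endothelial cells. Col8a1 (chr16:57624258-57754737, minus strand) had 18.2, 33.8 and 2.93 FPKM in the Ang II libraries and 3.85, 2.33 and 2.03 in the Ang II + Tec libraries. Ang II + Tec replicate 1, and not replicate 2, was the highest of its group and lay above Ang II replicate 3. For Col8a1 the log2 fold change was -1.91 (limma adjusted p = 0.242, standard error 0.72). Col8a2, the partner chain, had 5.86, 8.22 and 0.40 against 0.14, 0.63 and 0.25 FPKM and a log2 fold change of -1.75 (limma adjusted p = 0.238, standard error 0.64). Without Ang II replicate 3 they were -2.82 and -2.59. The 250 bases before the start site of Col8a1 (RefSeq, GRCm38.p6, chr16:57754738-57754987, minus strand) are shown for comparison with the fibrillar windows above, with the same capitals.
Col8a1: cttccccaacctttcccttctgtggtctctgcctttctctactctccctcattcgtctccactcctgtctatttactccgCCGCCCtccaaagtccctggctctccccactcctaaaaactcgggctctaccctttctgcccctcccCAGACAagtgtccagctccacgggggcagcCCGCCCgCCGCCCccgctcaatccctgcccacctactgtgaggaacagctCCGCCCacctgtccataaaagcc
This window held 4 GC boxes, at positions -170, -73, -66 and -23, and CAGACA at position -103. The other genes of this class were at most 0.36 FPKM in any library. Col10a1, Col26a1 and Col7a1 had no overlap between the groups, but at 0.02, 0.05 and 0.02 against 0, 0 and 0 FPKM, 0.11, 0.13 and 0.07 against 0.03, 0.02 and 0.02 FPKM and 0.13, 0.13 and 0.07 against 0.03, 0.04 and 0.05 FPKM the values are close to the limit of the 2 decimals deposited. Col28a1 had 0.26, 0.35 and 0 against 0.23, 0.36 and 0.28 FPKM.

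The 4 transmembrane collagens were low throughout and none was tested. Col23a1 had 0.29, 0.59 and 0.18 against 0.17, 0.44 and 0.30 FPKM and Col13a1 had 0.33, 0.14 and 0.14 against 0.12, 0.14 and 0.18 FPKM. Col17a1 and Col25a1 were at most 0.07 FPKM in any library. In none of the 4 genes did Ang II replicates 1 and 2 both lie above every Ang II + Tec library.

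The comparison of the groups across all genes was then considered. No tested collagen gene (0 of 23) was called differentially expressed, that is, at a limma adjusted p under 0.05 with a log2 fold change of 1 or more in either direction, a call made in 0.160% of all tested genes. At an unadjusted p under 0.05, 16 of the 23 were lower with Tec, against 16.5% of all tested genes, and 0 of the 23 were higher, against 2.09%. By class the 16 comprised 6 of 8 fibrillar genes, 3 of 8 basement membrane genes, 3 of 3 beaded genes, 2 of 2 FACIT genes and 2 of 2 network-forming genes. The count of 16 depended on which libraries were used. With Ang II replicate 1 left out it was 3, and with Ang II replicate 2 left out it was 5, against 6.29% and 7.64% of all tested genes. It was 7, 10 and 3 without Ang II + Tec replicates 1, 2 and 3, against 7.68%, 16.4% and 7.60%, and 18 without Ang II replicate 3, against 39.3%. A mean lower with Tec was found for 21 of the 23, beside the 80.0% of all genes. The groups did not overlap, with Tec lower, in 4 of the 23 (Col3a1, Col4a1, Col5a3 and Col6a3), against 18.9% of all tested genes, which is near the background. In the other direction this was 0 of the 23, against 2.90%. For 1 gene alone, the smallest p that exact permutation of 3 libraries against 3 can give is 0.1.

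The count of 0 called genes depended on Ang II replicate 3. Without it, 15 of the 23 were called lower with Tec, against 3.76% of all tested genes, comprising 5 of 8 fibrillar genes, 3 of 8 basement membrane genes, 3 of 3 beaded genes, 2 of 2 FACIT genes and 2 of 2 network-forming genes. Without Ang II replicate 1 the count was 0, against 0.00%, and without Ang II replicate 2 it was 0, against 0.0153%. All 23 tested collagen genes had their lowest Ang II value in replicate 3, against the 71.9% of all genes. Leaving it out therefore raises the Ang II mean of each of them by itself, and the 15 calls are not a test of Tec. Ang II + Tec replicate 2 was the highest of its group in 19 of the 23, against 69.3%. In 14 of the 23 both Ang II replicates 1 and 2 were at least 2-fold above every other library, against 1.96% of all tested genes. This count was chosen after the values had been seen.

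The median log2 fold change of the 23 genes was -1.38, beside -0.17 for all tested genes. After median-of-ratios scaling it was -1.15, beside 0.0020, and without Ang II replicate 3 it was -1.91, beside -0.24. By class the median was -1.93 for fibrillar, -1.83 for network-forming, -1.63 for FACIT, -1.39 for beaded and -0.53 for basement membrane genes. The last of these moved to -0.15 when Ang II replicate 2 was left out, and to -0.93 when Ang II replicate 3 was. The order of fibrillar and network-forming genes depended on the 1 added to each FPKM. With 0.5 added, the median was -2.06 for fibrillar and -2.11 for network-forming genes, and with 0.1 added it was -2.15 and -2.53. The classes are small, and the differences between them were not tested.

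**Figure D3:**
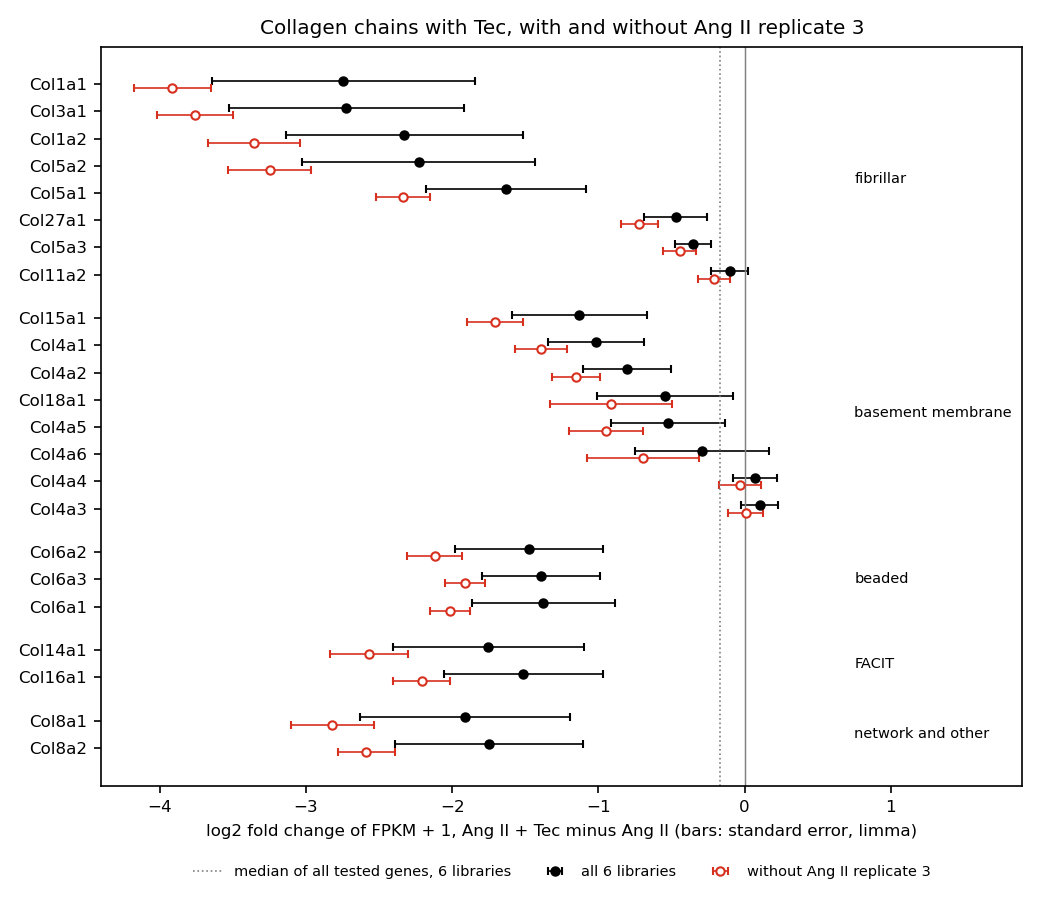
Log2 fold changes of FPKM + 1 with Tec (points) and their standard errors from limma (bars) for the 23 tested collagen genes by class, from all 6 libraries (filled) and without Ang II replicate 3 (open). The open points of Col1a1, Col3a1, Col1a2 and Col5a2 lie furthest to the left with shorter bars, and those of Col4a3 and Col4a4 are near 0.

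The makeup of the collagen transcripts was examined next. The summed FPKM of the 43 genes was 602, 826 and 135 in the Ang II libraries and 114, 148 and 96.7 in the Ang II + Tec libraries. As a share of all transcripts outside the mitochondrial genome, this was 0.198%, 0.267% and 0.0446% against 0.0375%, 0.0505% and 0.0323%. The groups overlapped, since Ang II + Tec replicate 2 exceeded Ang II replicate 3, and the means were 0.17% ± 0.114 and 0.0401% ± 0.00933 (SD, n = 3). Fibrillar genes made up 56.1%, 58.2% and 32.2% of the collagen FPKM in the Ang II libraries and 22.6%, 31.4% and 26.4% in the Ang II + Tec libraries. This share did not overlap between the groups, but Ang II replicate 3 and Ang II + Tec replicate 2 were close to each other. Basement membrane genes made up 21.5%, 21.2% and 46.3% against 55.8%, 46.1% and 50.2%, with overlap. The share of beaded genes varied less, between 10.4% and 16.7% over the 6 libraries.

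**Figure D4:**
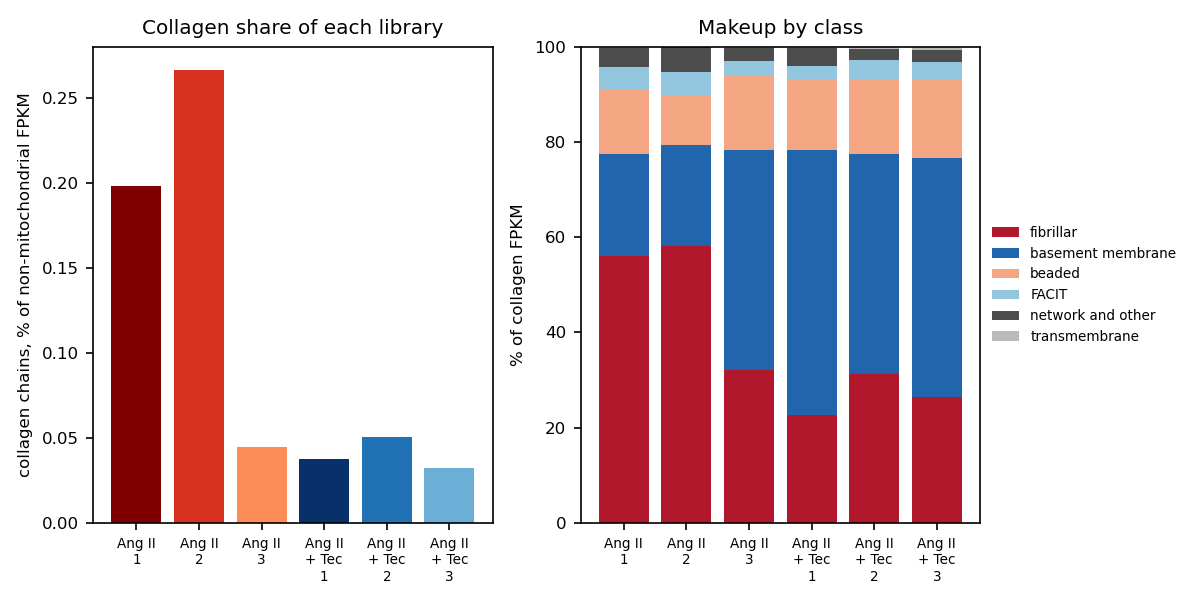
Left, the summed FPKM of the 43 collagen genes as a percentage of the FPKM outside the mitochondrial genome, 1 bar for each library. Right, the percentage of the collagen FPKM in each class, with fibrillar genes above 56% in Ang II replicates 1 and 2 and between 22.6% and 32.2% in the other 4 libraries.

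Ratios between chains of a library do not depend on its scaling. The ratio of Col1a1 to Col1a2, whose products combine as 2 chains to 1 in type I collagen, was 1.18, 0.998 and 0.787 in the Ang II libraries and 0.773, 0.671 and 0.659 in the Ang II + Tec libraries. The groups did not overlap, although Ang II replicate 3 and Ang II + Tec replicate 1 nearly met. The ratio of Col4a1 to Col4a2 was 1.19, 1.41 and 1.22 against 1.05, 1.10 and 1.14, again with no overlap. For Col6a3 to Col6a1 it was 0.201, 0.179 and 0.202 against 0.142, 0.160 and 0.153. Here Ang II replicate 3 had the highest ratio of all libraries, and so it stood with its own group. The ratios of Col1a1 to Col3a1, Col5a1 to Col5a2, Col6a1 to Col6a2 and Col8a1 to Col8a2 overlapped between the groups. That of Col6a1 to Col6a2 was the steadiest of these, between 1.98 and 2.54 over the 6 libraries. The ratio of Col8a1 to Col8a2 ranged from 3.10 to 27.5, and its highest value rested on 0.14 FPKM of Col8a2 in Ang II + Tec replicate 1.

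**Figure D5:**
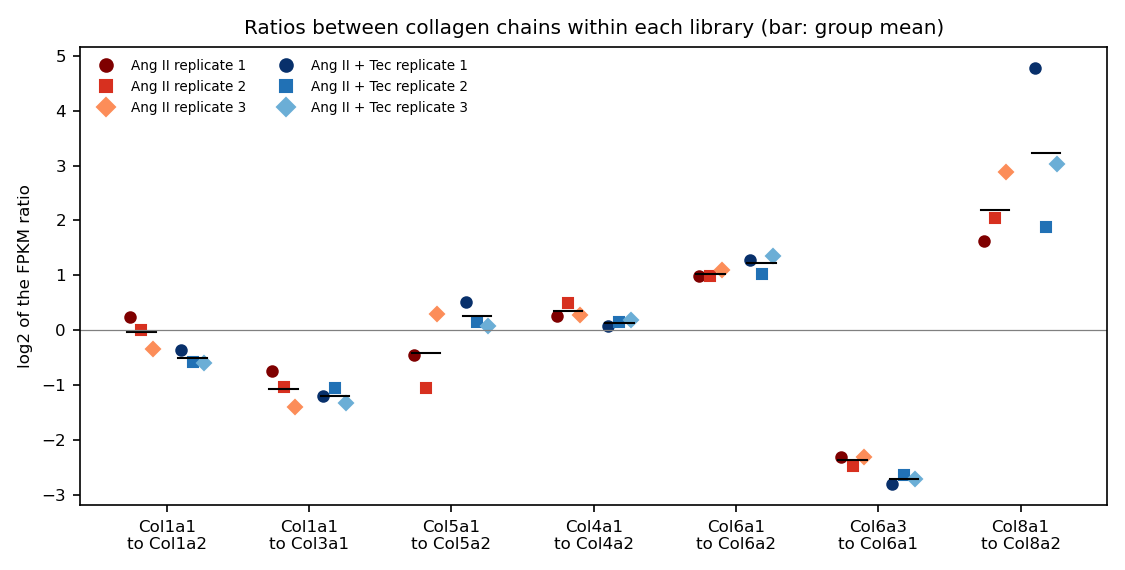
The log2 of the FPKM ratio between 2 chains in each library (symbols) with the mean of each group (bars), for 7 pairs. Groups do not overlap for Col1a1 to Col1a2, Col4a1 to Col4a2 and Col6a3 to Col6a1.

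Collagen chains are hydroxylated and folded in the endoplasmic reticulum, trimmed and cross-linked outside the cell, bound by receptors and degraded by proteases, which have inhibitors of their own. Of 78 genes listed for these steps and for the signals that induce them, 66 were tested. A lower mean with Tec was found for 60 of the 66, beside 80.0% of all tested genes. At an unadjusted p under 0.05, 24 were lower, beside 16.5% of all tested genes, and 1 was higher, beside 2.09%. None of the 66 was called in the 6 libraries (limma), beside 0.160%, and 28 were called lower without Ang II replicate 3, beside 3.76%. The lists for single steps are short, so their counts are descriptions to be read beside the same 16.5%. Of the cross-linking enzymes, 4 of 4 tested genes were lower at an unadjusted p under 0.05, with a median log2 fold change of -1.69. Their summed FPKM was 61.7, 103 and 12.8 in the Ang II libraries and 10.7, 12.9 and 8.20 in the Ang II + Tec libraries. Among them Loxl2, a lysyl oxidase, had the lowest p (9.48, 12.7 and 2.65 against 2.56, 1.75 and 1.48 FPKM, log2 fold change -1.48, limma adjusted p = 0.221).

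Of 14 tested genes for hydroxylation and glycosylation, 5 were lower and 1 higher at an unadjusted p under 0.05. The higher gene, P4ha2, a catalytic subunit of prolyl 4-hydroxylase, also had the lowest p of this group (3.60, 3.39 and 3.22 against 4.84, 5.10 and 4.18 FPKM, log2 fold change 0.37, limma adjusted p = 0.221, standard error 0.12). Its groups did not overlap, and Ang II replicate 3 lay with the other Ang II libraries. In folding and secretion 3 of 10 were lower, led by Fkbp10, a prolyl isomerase of collagen folding. Fkbp10 had 14.1, 17.1 and 9.22 against 4.65, 6.88 and 5.92 FPKM with no overlap, a log2 fold change of -1.06 (standard error 0.23) and a limma adjusted p of 0.185. In propeptide removal 2 of 5 were lower, led by Pcolce, which enhances the removal of the C-propeptide (log2 fold change -1.25). Among fibril-binding proteins 5 of 10 were lower, led by Sparc, which binds collagen outside the cell (log2 fold change -1.80, limma adjusted p = 0.218, standard error 0.51).

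Among collagen receptors 2 of 6 were lower, led by Mrc2, an uptake receptor for collagen (log2 fold change -1.34). In degradation 3 of 7 were lower, comprising 2 of 3 proteases (Mmp14 and Ctsk) and 1 of 4 protease inhibitors (Timp1). The lowest p was that of Mmp14, a membrane-bound collagenase (3.27, 4.35 and 1.03 against 0.72, 1.02 and 0.66 FPKM). Timp1, which inhibits matrix metalloproteinases, had 34.9, 56.2 and 2.49 against 1.10, 3.35 and 1.88 FPKM. Of the 10 signalling genes 0 were lower at this level, and the lowest p was that of Tgfb1, the ligand that induces collagen genes in fibroblasts (4.13, 4.31 and 2.73 against 2.50, 2.92 and 2.32 FPKM, log2 fold change -0.39, limma adjusted p = 0.268). These p-values describe single genes, and the adjusted p of none was under 0.05.

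Finally, markers of the cell types of the heart were set beside the collagen genes. The summed FPKM of 8 activated fibroblast markers was 439, 555 and 84.3 in the Ang II libraries and 52.0, 160 and 62.9 in the Ang II + Tec libraries, and all 8 had a lower mean with Tec, 6 of them at an unadjusted p under 0.05. As for every marker list, these counts stand beside 80.0% of all tested genes with a lower mean and 16.5% that were lower at that level. Without Acta2, the most abundant of them, which mural cells also express, the sum was 366, 419 and 27.9 against 19.3, 31.8 and 16.7. Thus Ang II replicates 1 and 2 were high in these markers as in the fibrillar genes. For 9 general fibroblast markers the sum was 559, 543 and 324 against 384, 737 and 470. More than any other gene, it was set by Gsn, an actin-severing protein, at 333, 289 and 226 against 307, 606 and 375 FPKM. Without Gsn, it was 226, 254 and 97.6 against 76.8, 132 and 95.2, with Ang II replicates 1 and 2 the highest. Of these 9 genes, 6 had a lower mean, 2 were lower and 1 higher at an unadjusted p under 0.05. The 2 lower genes were Mfap5 (log2 fold change -1.73, limma adjusted p = 0.231) and Pi16 (-1.10, limma adjusted p = 0.234). The higher gene was Scara5 (0.69, limma adjusted p = 0.226). Pdgfra, a defining fibroblast receptor, had 5.90, 6.41 and 3.29 against 3.31, 4.46 and 3.46 FPKM (log2 fold change -0.35, limma adjusted p = 0.384, standard error 0.22).

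The summed FPKM of 8 macrophage markers was 333, 509 and 261 against 179, 179 and 194, with all 8 lower in the mean and 7 at an unadjusted p under 0.05. Here Ang II replicate 3 also stood above the 3 Ang II + Tec libraries in this sum. Endothelial markers were even, between 174 and 214 over the 6 libraries, and mural markers lay between 168 and 313. The 7 cartilage and valve markers, of which 3 were tested, summed to 41.3, 48.9 and 2.27 against 1.12, 15.3 and 6.60. In Ang II replicates 1 and 2 most of this sum was Comp, a cartilage matrix protein that is also among the activated fibroblast markers, and without it the sum was 7.03, 8.89 and 1.37 against 0.48, 8.69 and 3.89. Col2a1, Col11a1 and Col9a2 were highest in Ang II replicates 1 and 2, whereas the sum without Comp was about as high in Ang II + Tec replicate 2. In that library most of the sum was Chad, at 3.72, 4.47 and 0.08 against 0, 7.56 and 3.02 FPKM. Acan, Sox9, Matn4 and Hapln1 were highest in Ang II replicates 1 and 2, and Cnmd in Ang II replicate 3. The glial markers summed to between 2.68 and 6.78, and those of skeletal muscle to between 95.0 and 632, which was mostly Acta1. Mylpf, a fast skeletal myosin light chain, was the 1 gene called in any marker list, and it was higher with Tec (0.58, 0.56 and 0.22 against 4.14, 3.44 and 4.55 FPKM, log2 fold change 1.80, limma adjusted p = 0.0142). Tnnt3 of the same list had a lower mean with Tec (6.91, 42.4 and 0.30 against 1.41, 1.04 and 1.31 FPKM). Its log2 fold change was -1.77 (limma adjusted p = 0.378, standard error 1.09), so the skeletal muscle markers did not move together. Atrial markers were high in Ang II replicates 1 and 2 and also in Ang II + Tec replicate 2. That library was the highest of its group in 8 of 8 tested fibrillar genes, against 69.3% of all tested genes. In that library Col1a1 was 8.06 FPKM, above the 4.20 and 3.83 of the other Ang II + Tec libraries and below the 82.7 and 100.4 of Ang II replicates 1 and 2. The part of fibroblast state, macrophages, valve tissue and atrial tissue in the collagen levels was not tested.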

How the data were processed

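Heart RNA of 3 Ang II and 3 Ang II + Tec mice was sequenced. Reads were trimmed with Cutadapt and checked with FastQC, and the authors deposited FPKM per gene, rounded to 2 decimals. The submitters' processing notes name Bowtie 0.12.2, HISAT2 2.0, StringTie 1.3.0 and the build mm8, without roles. The gene coordinates instead equal those of GENCODE M21 (GRCm38) in 26777 of 30832 shared genes (86.8%) and for 36 of the 43 collagen genes. FPKM do not hold read totals, so the depth is unknown and no counting interval is given. The SD values are the spread between mice. The standard errors are from limma, which draws the variance of each gene towards a trend over all tested genes.

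Genes that reached 0.5 FPKM in 3 or more libraries were tested on log2(FPKM + 1), which understates the fold change of low genes, with limma 3.58.1 in R 4.3.3 (lmFit, eBayes with trend) and Benjamini-Hochberg adjustment over 13089 genes. The fit was checked on simulated data in which genes vary independently, so the check does not cover a library that is low across many genes. Shares and ratios were computed from FPKM with pandas 2.3.3 and drawn with matplotlib 3.10.9. Promoter sequences are from RefSeq (GRCm38.p6). Alternatives changed the pseudocount, the filter, the scaling, the replicate block, the variance estimate and the library weights, and left out each library in turn. All members are named, with values by library for the 12 most abundant and for tested members opposite to the median. For each step of the collagen pathway, the gene with the lowest p is named. Acta2, Gsn, Comp, Acta1, Mylpf, Tnnt3, Nppa, Aldh1a2, Ctsk and Timp1 were named after their values were seen. The same holds for Chad, Acan, Sox9, Matn4, Hapln1, Cnmd, Mfap5, Pi16, Scara5 and Pdgfra. The members and lists were chosen with earlier results of these data known.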

Additional observations from a re-analysis of the deposited data

How the results depend on the processing

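The count of 0 called collagen genes depended on the library weights and on which library was left out. It was 17 with library weights, where limma estimates a weight for each library. The share of all tested genes called with these weights is not given here, so the 17 has no background beside it. When each library was left out in turn the count ranged from 0 to 15, with 15 reached without Ang II replicate 3. The count lower at an unadjusted p under 0.05 (16) ranged from 3 to 18 in the same way. It was 3 and 5 without Ang II replicates 1 and 2, and 7, 10 and 3 without Ang II + Tec replicates 1, 2 and 3. The count without overlap (4) ranged from 4 to 19, the latter without Ang II replicate 3, was 14 when Ang II + Tec replicate 2 was left out, and it was 7 with no filter on low FPKM. The share of all tested genes is given only for the main setting (18.9%), so these other counts have no background beside them. With a library left out, groups also separate more easily. With no filter, the median log2 fold change, then over all 43 genes, was -0.40 (fibrillar -0.62, FACIT -0.37, network-forming and other -0.10), since the added genes are near 0 FPKM and the pseudocount holds them near no change.

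Over 362 values of the 23 genes under the alternatives, 325 kept their direction and side of the threshold, 32 passed the threshold in the same direction, and 5 in 4 genes turned direction. Col11a2 was 0.0032 with quantile normalization, Col4a3 was -0.079 and Col4a4 -0.14 with library weights, Col4a4 ranged from -0.031 (without Ang II replicate 3) to 0.23 with each library left out, and Col4a6 from -0.70 to 0.11 (without Ang II replicate 2). The cause was not tested. With the replicate number as a block, 0 collagen genes were called and 19 were lower at an unadjusted p under 0.05. The share of all tested genes under this setting is not given here. The labels name no pairing of the mice. The deviations of same-numbered libraries correlated at -0.039, 0.43 and 0.38. Ang II replicates 2 and 3 were closest to the library of the same number, whereas Ang II replicate 1 was closest to Ang II + Tec replicate 2 (0.21). These correlations cannot settle whether the numbers pair the mice, since deviations from a mean of 3 libraries depend on each other. With 3 mice in a group, the spread between the Ang II mice limits every result on the collagen genes.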
